A study of Mus musculus with 6 samples.

Results

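The genes studied here control the G1 phase of the cell cycle, and 10 were chosen by name: the D cyclins Ccnd1, Ccnd2 and Ccnd3, the CDK inhibitors Cdkn1a, Cdkn1b, Cdkn1c, Cdkn2a and Cdkn2b, and Trp53 with its antagonist Mdm2. All 10 were found among the 49548 genes of the deposited table, each in 1 row, and 9 of the 10 passed the filter on low values. Cells were synovial fibroblasts (SFs), the connective tissue cells of the joint lining, cultured from the ankles of hTNFtg mice (CBA C57BL/6J, aged 8 weeks), which carry a human TNF transgene and develop arthritis. All 6 libraries share this genotype and the depletion of CD45+ cells at passage 1, 3 being labelled as having had no treatment and 3 as having had 500 μM amisulpride, a dopamine and serotonin receptor antagonist used as an antipsychotic, for 48 hours. The methods of the study speak of vehicle and of biological replicates, the labels of no treatment, and the controls are called untreated here. A single dose and time, in transgenic cells alone, are analysed here.

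D-type cyclins bind the kinases Cdk4 and Cdk6, and the complex phosphorylates the retinoblastoma protein, which releases E2F transcription factors and lets a cell pass from G1 into S phase. The INK4 inhibitors, encoded by Cdkn2a and Cdkn2b, bind Cdk4 and Cdk6 directly, whereas the CIP/KIP inhibitors, encoded by Cdkn1a, Cdkn1b and Cdkn1c, bind cyclin-CDK complexes. The transcription factor p53, the product of Trp53, activates Cdkn1a and Mdm2, and the Mdm2 ubiquitin ligase in turn marks p53 for degradation, so p53 activity is set largely at the protein level, which mRNA sequencing does not measure.

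Reads came from the 3′ end of transcripts (QuantSeq), so a value is not expected to scale with transcript length, and levels of different genes are set side by side as normalised counts, that is, reads divided by 1 factor per library. The deposited table has 1 value per gene and library, so transcripts of 1 gene are not told apart. This matters for Cdkn1a and Cdkn2a, whose paired promoters are shown here because each gene has 2 annotated starts and only 1 value. Cdkn2a (chr4:89274471-89294653, minus strand, mm10) has 2 coding transcripts that differ in exon 1 and overlap in exons 2 and 3. The downstream start gives p16Ink4a, the INK4 inhibitor, and the start 12427 bases upstream gives p19Arf, which holds Mdm2 away from p53. The Cdkn1a value likewise covers starts 2790 bases apart. The sequences are from RefSeq on GRCm38.p6, the assembly of mm10, lie upstream of each start and read 5′ to 3′ on the gene's strand, without bases that GENCODE places in an exon. Capitals mark motifs: the Sp1 GC box GGGCGG or its complement CCGCCC, the E2F site TTTCCCGC or its complement GCGGGAAA, and a p53 site.
Cdkn1a, upstream start, chr17:29090729-29090975, plus strand: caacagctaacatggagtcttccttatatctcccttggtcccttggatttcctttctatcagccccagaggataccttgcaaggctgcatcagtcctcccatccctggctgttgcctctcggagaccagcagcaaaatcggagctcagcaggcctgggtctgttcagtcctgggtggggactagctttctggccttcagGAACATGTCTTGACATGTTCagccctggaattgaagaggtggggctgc
Cdkn1a, downstream start, chr17:29093519-29093768, plus strand: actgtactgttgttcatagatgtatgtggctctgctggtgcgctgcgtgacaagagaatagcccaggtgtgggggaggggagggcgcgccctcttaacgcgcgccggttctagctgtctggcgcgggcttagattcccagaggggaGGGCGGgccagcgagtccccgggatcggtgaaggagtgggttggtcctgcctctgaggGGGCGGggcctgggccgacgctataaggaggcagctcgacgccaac
Cdkn2a, p16Ink4a start, chr4:89282193-89282442, minus strand: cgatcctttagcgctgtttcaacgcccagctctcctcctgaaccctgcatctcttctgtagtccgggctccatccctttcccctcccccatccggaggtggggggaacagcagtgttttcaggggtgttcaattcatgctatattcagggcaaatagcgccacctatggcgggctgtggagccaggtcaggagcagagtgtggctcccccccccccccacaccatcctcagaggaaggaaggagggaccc
Cdkn2a, p19Arf start, chr4:89294654-89294869, minus strand: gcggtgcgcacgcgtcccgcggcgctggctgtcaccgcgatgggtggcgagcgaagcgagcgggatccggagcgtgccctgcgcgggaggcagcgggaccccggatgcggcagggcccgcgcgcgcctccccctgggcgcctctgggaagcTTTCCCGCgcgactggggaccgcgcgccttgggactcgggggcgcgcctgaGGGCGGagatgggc

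The p53 site was searched as a pair of adjacent 10-base units of the p53 consensus with at most 1 mismatch over both units, which is the same pattern on either strand. It was present in 25 of the 32851 mouse windows of 250 bases upstream of a start (0.0761%), among them the window of the upstream Cdkn1a start, where it reads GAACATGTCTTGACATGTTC and ends 32 bases before the start. No other window of the genes studied held it. The GC box was present in 32.7% of all windows and occurs 2 times before the downstream Cdkn1a start, and the E2F site was present in 0.895% and occurs 1 time before the p19Arf start. Also searched on both strands were TTTGGCGC, another E2F site, in 0.417% of windows, TATAAA in 12.4%, CCAAT in 33.9% and the cyclic AMP element TGACGTCA in 1.55%. The last occurs 1 time in the Cdkn2b window, 39 bases before the start. The window of the p16Ink4a start held none of these motifs. Windows were matched for 7 of the 10 genes, not for Ccnd1, Ccnd2 and Cdkn1c. A match is a match of letters and was not tested as a binding site.

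None of the 9 G1 control genes tested passed the test for a difference between amisulpride-treated and untreated SFs (limma, 0 of 9 with an unadjusted p under 0.05), against 10.9% of all 12614 genes tested. Likewise 0 of 9 passed the thresholds of the study, a log2 fold change of 1 or more in either direction and an unadjusted p under 0.05, against 5.7% of all genes (3.01% lower and 2.69% higher), and 0 of 9 had an adjusted p under 0.05, against 0.285%. Of the 9 log2 fold changes, 5 were below 0 and 4 above, with a median of -0.01, beside a median of 0.00 over all genes tested. The 95% confidence interval lay wholly between -1 and 1 for 7 of the 9 genes, all but Ccnd1 and Trp53, against 40.7% of all genes tested, so for these 7 a change by the fold that the study required was outside the interval. The share over all genes was not matched for level, and all of the 7 but Cdkn1b stood at the 80.7th to 99.35th percentile of level. With 3 libraries a group, smaller changes than the intervals of the G1 control genes allow were not detectable. In bulk RNA, fewer cells that express a gene and less RNA per cell cannot be told apart.

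**Figure D1:**
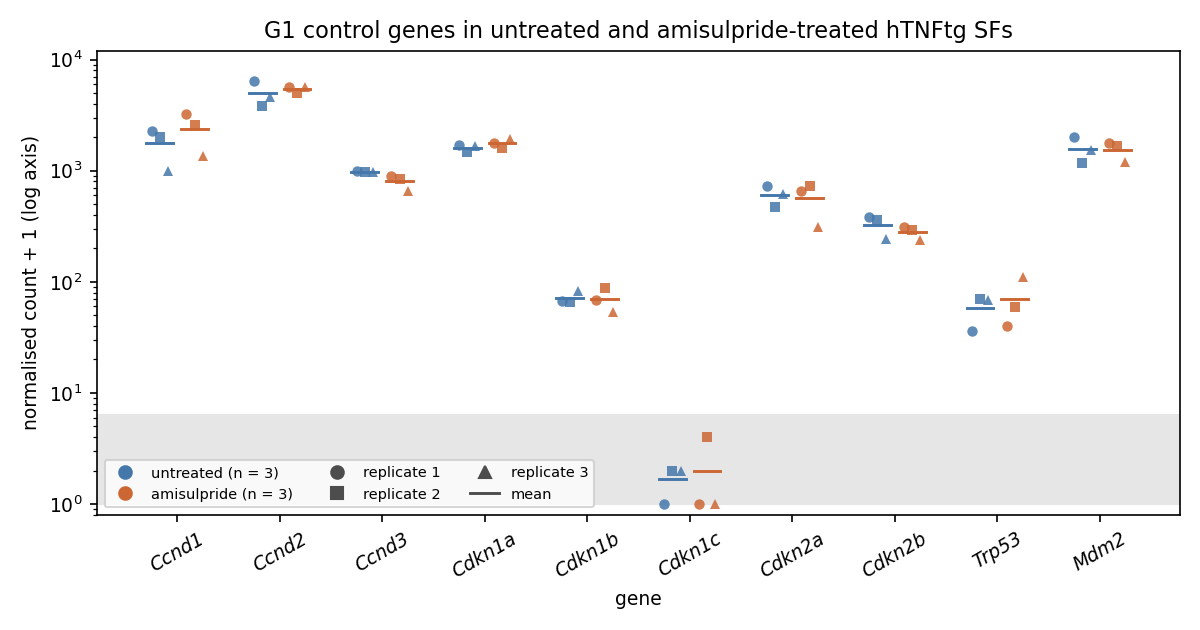
Normalised count + 1 (log axis) of each of the 10 G1 control genes in each of 3 untreated (blue) and 3 amisulpride (orange) libraries, with the marker shape giving the replicate number, the line the mean and the grey band the values that a floor of 3 reads reaches in the shallowest library. Only for Ccnd3 do the groups not overlap, and all values of Cdkn1c lie within the band.

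**Figure D2:**
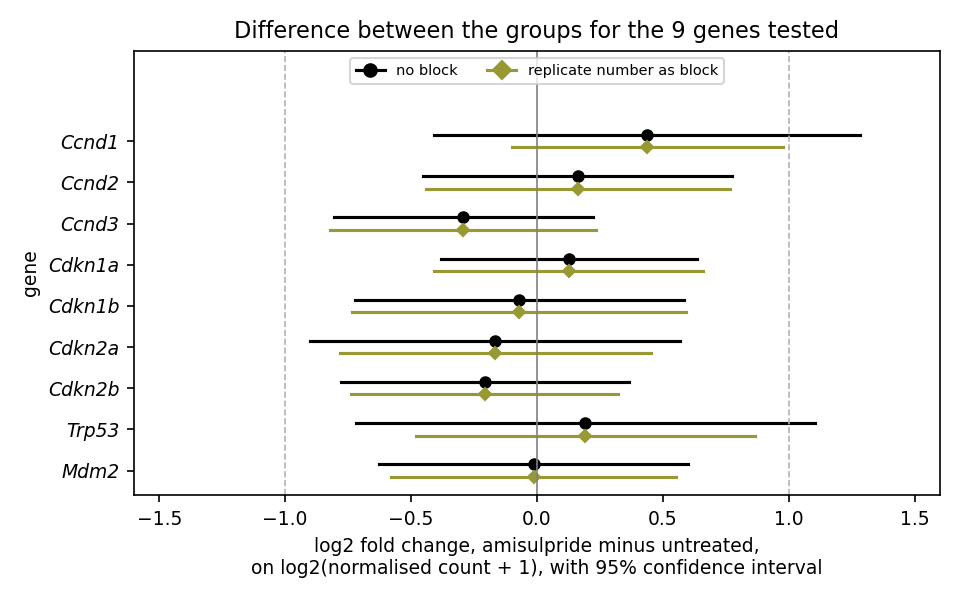
Log2 fold change (amisulpride minus untreated, on log2(normalised count + 1)) of the 9 genes tested, with the 95% confidence interval from limma without a block (black circles) and with the replicate number as a block (olive diamonds). Every interval includes 0, and those without a block for Ccnd1 and Trp53 extend past 1.

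Among the D cyclins, Ccnd2 (chr6:127125162-127152193, minus strand) had the highest level, with 6465, 3837 and 4581 normalised counts in untreated replicates 1, 2 and 3 and 5609, 5007 and 5674 in amisulpride replicates 1, 2 and 3. The treated values lay within the untreated range, and the log2 fold change was 0.16 (95% confidence interval -0.45 to 0.78, limma, unadjusted p = 0.572, adjusted p = 0.864).

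Ccnd1 (chr7:144929931-144939925, minus strand), the D cyclin induced by growth factor signalling in many cells, stood at 2289, 2002 and 990 normalised counts in untreated and at 3218, 2566 and 1367 in treated replicates. Replicate 3 was lowest in both groups, so the groups overlapped, while each treated library was above the untreated library of its number by 0.49, 0.36 and 0.47 on the log2 scale. Of all genes tested, 16.9% were higher in every pair. The log2 fold change of 0.44 ± 0.39 (SE, n = 3) did not pass the test (limma, interval -0.41 to 1.28, unadjusted p = 0.280, adjusted p = 0.729). With the replicate number as a block the interval was -0.10 to 0.98 and the unadjusted p was 0.104. The value depended on single libraries. Leaving out each in turn gave 0.07 without untreated replicate 3 (limma, unadjusted p = 0.867), 0.18 without amisulpride replicate 1, 0.34 to 0.67 without amisulpride replicate 2 or untreated replicates 1 or 2, and 0.80 without amisulpride replicate 3, where alone it passed an unadjusted p of 0.05 (interval 0.06 to 1.53, unadjusted p = 0.0359, adjusted p = 0.342). With libraries weighted by limma it was 0.77 (unadjusted p = 0.0394, adjusted p = 0.326). With the block and without both libraries of replicate 3 it was 0.42 (unadjusted p = 0.177).

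The third D cyclin, Ccnd3 (chr17:47505051-47599691, plus strand), differed little between the untreated libraries, at 985, 964 and 967 normalised counts, and stood at 901, 847 and 655 in the treated ones. All treated values lay below all untreated ones, as for 8.66% of all genes tested, the treated value was lower in 3 of 3 pairs (17.8% of all genes), and amisulpride replicate 3 was the lowest. The log2 fold change of -0.29 ± 0.23 (SE, n = 3) did not pass the test (limma, interval -0.81 to 0.22, unadjusted p = 0.237, adjusted p = 0.701), and its size went down to -0.15 without amisulpride replicate 3.

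Reads at the 3′ ends of these genes can come from other transcripts. Oraov1 runs over the Ccnd1 end on the opposite strand for 1771 bases, and Bysl over the Ccnd3 end for 361 bases. Whether counting used the strand is not given in the sources used here. Oraov1 had 82 to 146 normalised counts in the 6 libraries and Bysl 29 to 85, both far below the D cyclins. A Ccnd3 pseudogene, Ccnd3-ps, shares 13.6% of the 30-base words at the Ccnd3 ends and had 2 to 4 normalised counts.

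Summed over the 3 genes, D cyclin transcripts came to 7693 ± 1777 normalised counts (SD, n = 3) in untreated and 8615 ± 1030 in treated SFs, a difference within the spread between libraries. Ccnd2 made up 56.4% to 70.1% of this sum in untreated and 57.7% to 73.7% in treated libraries, and Ccnd1 15.1% to 29.4% and 17.8% to 33.1%. The share of Ccnd3 was 10.1%, 14.2% and 14.8% in untreated replicates 1, 2 and 3 and 9.26%, 10.1% and 8.51% in the treated ones. The Ccnd3 share of untreated replicate 1 lay just above the highest treated one and those of the other untreated libraries well above it, with no test made.

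**Figure D3:**
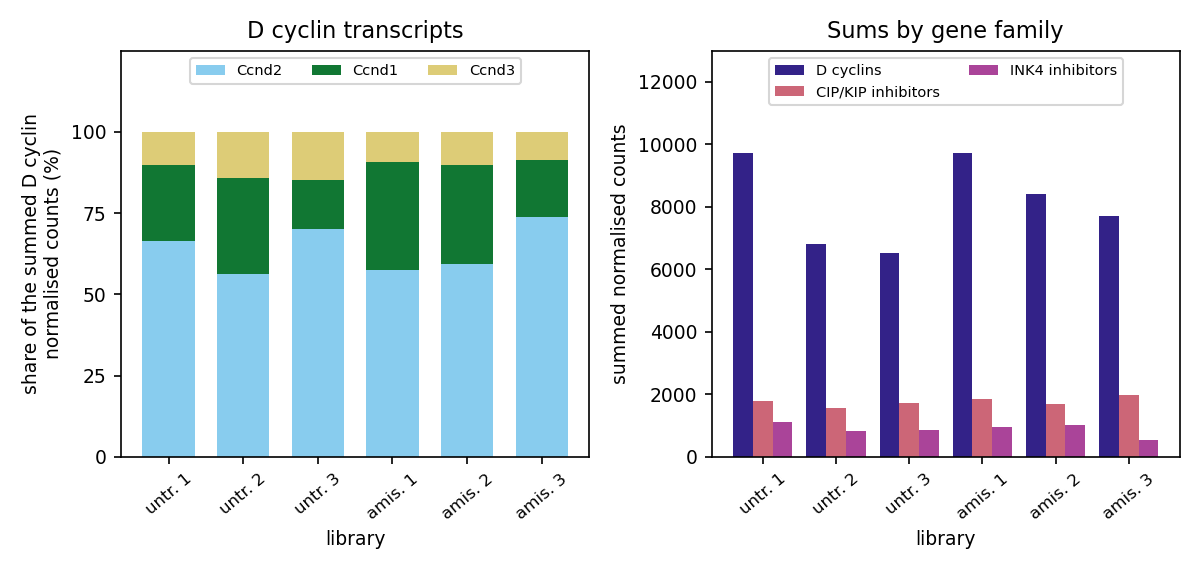
Left, share (%) of Ccnd2, Ccnd1 and Ccnd3 in the summed normalised counts of the D cyclins in each of the 6 libraries. Right, summed normalised counts of the D cyclins, the CIP/KIP inhibitors and the INK4 inhibitors (Cdkn2a and Cdkn2b) in the same libraries. Ccnd2 is the major part in all 6, and D cyclin sums of 6538 to 9739 stand beside CIP/KIP sums of 1548 to 1981 and INK4 sums of 548 to 1101.

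Of the CIP/KIP inhibitors, nearly all reads came from Cdkn1a (chr17:29090979-29100722, plus strand), the p53-induced inhibitor p21, which made up 94.7% to 97.4% of the summed values. Its level was 1707, 1482 and 1654 normalised counts in untreated and 1770, 1594 and 1929 in treated replicates. Untreated replicate 1 lay above treated replicate 2, so the groups overlapped, although the treated library was higher in 3 of 3 pairs, by 0.05, 0.11 and 0.22 on the log2 scale. The log2 fold change was 0.13 ± 0.23 (SE, n = 3, limma, unadjusted p = 0.596, adjusted p = 0.874), and its interval ran from 0.767-fold to 1.55-fold of the untreated level. It ranged from 0.06 to 0.20 when each library was left out in turn.

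Cdkn1b (chr6:134920401-134925513, plus strand), which encodes the inhibitor p27, was low at 66, 65 and 82 normalised counts in untreated and 67, 87 and 52 in treated replicates. The treated libraries held both the highest and the lowest value, and the log2 fold change was -0.07 (limma, interval -0.72 to 0.58, unadjusted p = 0.818, adjusted p = 0.950). Cdkn1c (chr7:143458339-143461050, minus strand), which encodes p57, had 0, 1 and 1 normalised counts in untreated and 0, 3 and 0 in treated replicates. These values lie at or under a floor of 3 reads in 6 of 6 libraries, which corresponds to 2.50 to 5.36 normalised counts, so Cdkn1c was not detected at this depth and no fold change was computed. Floors cover counting error only.

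The CIP/KIP sum was 1686 ± 121 normalised counts in untreated and 1834 ± 149 in treated libraries (SD, n = 3). The ratio of the D cyclin sum to the CIP/KIP sum was 5.49, 4.39 and 3.76 in untreated and 3.88 to 5.30 in treated replicates. Replicate 1 had the highest and replicate 3 the lowest ratio in both groups, and the group means of 4.55 ± 0.875 and 4.73 ± 0.744 (SD) differed by less than this spread.

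Turning to the INK4 inhibitors, Cdkn2a had 723, 474 and 613 normalised counts in untreated and 656, 731 and 310 in treated replicates, for p16Ink4a and p19Arf together. Amisulpride replicate 3 was below all other libraries and amisulpride replicate 2 above all. The log2 fold change of -0.17 (limma, interval -0.90 to 0.57, unadjusted p = 0.629, adjusted p = 0.886) turned to 0.22 without amisulpride replicate 3 (unadjusted p = 0.398), so no direction can be read from it. Its neighbour Cdkn2b (chr4:89306289-89311032, minus strand), which encodes the TGF-β-induced inhibitor p15, stood at 378, 357 and 242 normalised counts in untreated and 307, 290 and 238 in treated replicates. It was lower in 3 of 3 treated libraries than in the untreated library of the same number, by 0.30, 0.30 and 0.02 on the log2 scale, with overlapping groups and a log2 fold change of -0.21 (limma, interval -0.78 to 0.36, unadjusted p = 0.443, adjusted p = 0.812). Summed, Cdkn2a, with its p19Arf reads, and Cdkn2b came to 929 ± 149 normalised counts against 844 ± 258 (SD, n = 3). Cdkn2c and Cdkn2d are not in this sum.

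Trp53 (chr11:69580359-69591873, plus strand) itself was a low gene in these libraries, at 35, 69 and 68 normalised counts in untreated and 39, 58 and 109 in treated replicates. Replicate 1 was lowest in both groups and amisulpride replicate 3 highest of all. The log2 fold change of 0.19 (limma, interval -0.72 to 1.11, unadjusted p = 0.652, adjusted p = 0.895) turned to -0.20 without amisulpride replicate 3 (unadjusted p = 0.604). Mdm2 (chr10:117688888-117710758, minus strand) stood at 1990, 1165 and 1545 normalised counts in untreated and 1760, 1668 and 1188 in treated replicates, with the highest and the lowest value both in the untreated group. Its log2 fold change was -0.01 (limma, interval -0.63 to 0.60, unadjusted p = 0.964, adjusted p = 0.990). There were 16.9 to 56.9 Mdm2 reads per Trp53 read in untreated and 10.9 to 45.1 in treated libraries.

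Ordered by level on the normalised count scale in untreated SFs, Ccnd2 came first, above all other G1 control genes in each library. Ccnd1, Cdkn1a and Mdm2 followed with overlapping ranges of 990 to 2289, 1482 to 1707 and 1165 to 1990. Ccnd3, Cdkn2a and Cdkn2b came next with ranges that did not overlap each other, then Cdkn1b and Trp53, whose ranges of 65 to 82 and 35 to 69 overlapped, and Cdkn1c was last. In treated SFs the same groups of neighbours overlapped and so did Ccnd3, at 655 to 901, with Cdkn2a, at 310 to 731. By mean level over the 6 libraries, Ccnd2 stood at the 99.35th percentile of the genes tested, Cdkn1b at the 45.5th and Trp53 at the 42.5th.

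The genes whose pattern over the 6 libraries was most like that of 3 members are given as a description, since 6 points share their libraries and scaling. For Ccnd1 they were Hmox1 (heme oxygenase; Pearson r = 0.993), Net1 (0.991) and Zbtb14 (a transcription factor; 0.988), and 106 of the 11034 protein-coding genes compared had r of at least 0.9. For Cdkn1a they were Ankfy1 (0.978), Itpr2 (an intracellular calcium channel; 0.977) and Dicer1 (the microRNA-processing nuclease; 0.976). For Trp53 they were Nedd9 (a focal adhesion scaffold; 0.990), Smad5 (a BMP signal transducer; 0.989) and Ppia (cyclophilin A; 0.989). Like Ccnd1, Hmox1 was lowest in replicate 3 of both groups, at 299, 246 and 148 normalised counts in untreated and 396, 312 and 202 in treated replicates.

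The partners of the D cyclins and inhibitors were then examined. Cdk4 had 153, 188 and 182 normalised counts in untreated and 170, 153 and 140 in treated replicates (log2 fold change -0.17, limma, unadjusted p = 0.490), and Cdk6 496, 413 and 453 against 469, 344 and 558 (-0.01, unadjusted p = 0.956). Rb1, the retinoblastoma gene, had 79, 97 and 83 against 97, 123 and 165 normalised counts (0.54, unadjusted p = 0.0827), and Myc, a growth regulator, 52, 64 and 38 against 49, 54 and 30 (-0.22, unadjusted p = 0.543). The groups overlapped for all 4 of these genes.

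Of the 31 G1 machinery genes tested, 3 were lower and 1 higher with an unadjusted p under 0.05 (limma), against 5.77% and 5.11% of all genes tested, and the median log2 fold change was -0.01. Ccne1, which encodes cyclin E1 and was named after its values were seen, had 124, 136 and 123 normalised counts in untreated and 82, 71 and 57 in treated replicates, a log2 fold change of -0.87 (limma, interval -1.45 to -0.29, unadjusted p = 0.00709, adjusted p = 0.229). Its kinase Cdk2 had 210, 103 and 174 against 113, 106 and 55 normalised counts (-0.83, unadjusted p = 0.0407, adjusted p = 0.431), a call that ended without amisulpride replicate 3 (-0.50, unadjusted p = 0.137) and also without untreated replicate 1 or 3 (unadjusted p = 0.157 and 0.115). Cdkn2c, which encodes the INK4 inhibitor p18, had 23, 32 and 36 against 17, 7 and 7 normalised counts and was the 1 gene of the list past the thresholds of the study (-1.56, unadjusted p = 0.00724, adjusted p = 0.232). Its values of 7 rest on few reads, as a floor of 3 reads is 3.98 normalised counts in amisulpride replicate 2 and 5.36 in amisulpride replicate 3. The groups did not overlap for Ccne1 and Cdkn2c, whereas untreated replicate 2 of Cdk2 lay below 2 of the treated values. Of the 31 genes tested, all treated values lay below the untreated ones for 2 and above them for 3. Over all 12614 genes tested, these counts were 1092 and 984.

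**Figure D4:**
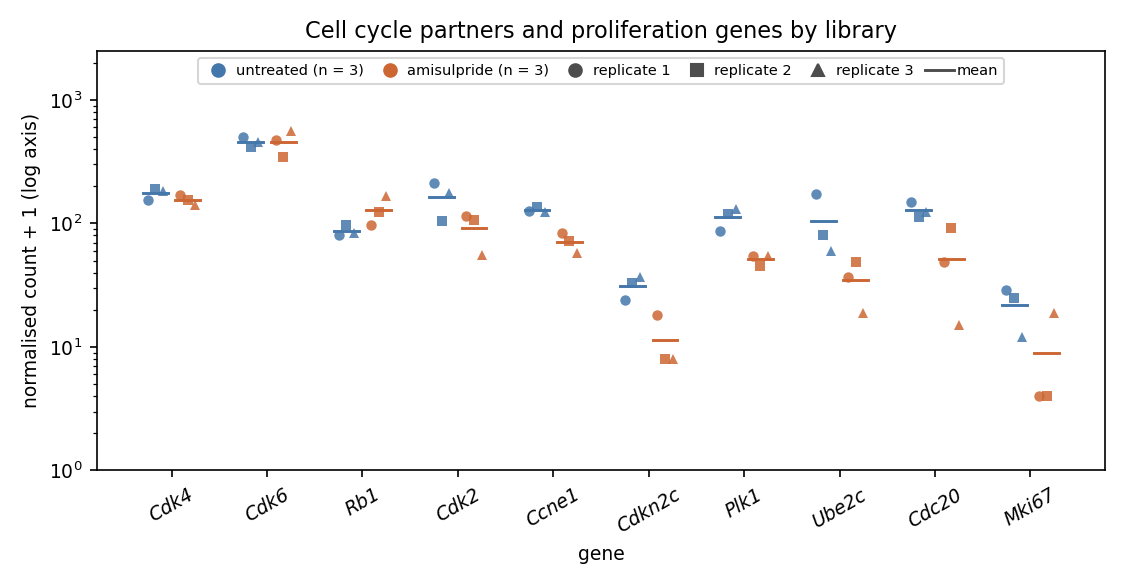
Normalised count + 1 (log axis) of the D cyclin kinases Cdk4 and Cdk6, of Rb1, of Cdk2, Ccne1 and Cdkn2c and of 4 proliferation genes in 3 untreated (blue) and 3 amisulpride (orange) libraries, with marker shapes for the replicate number and lines for the means. Cdk4 and Cdk6 overlap between the groups, while the treated values of Ccne1, Cdkn2c, Plk1, Ube2c and Cdc20 all lie below the untreated ones. Ccne1, Cdkn2c, Plk1, Ube2c and Cdc20 were named by their values, so this contrast adds no support.

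Proliferation genes, those of DNA replication and mitosis, were largely lower in treated SFs: 30 of the 34 tested had a log2 fold change below 0, with a median of -0.66 beside 0.00 over all genes, and 11 were lower and 0 higher with an unadjusted p under 0.05 (limma). Over all genes tested 5.77% were lower at this threshold. None had an adjusted p under 0.05. Past the thresholds of the study were 4 genes. Plk1, a mitotic kinase, had 86, 118 and 129 against 54, 44 and 54 normalised counts (log2 fold change -1.10, unadjusted p = 0.00249, adjusted p = 0.151), and Ube2c, which serves the anaphase-promoting complex, 172, 80 and 59 against 36, 48 and 18 (-1.54, unadjusted p = 0.00598, adjusted p = 0.213). Cdc20, an activator of the same complex, had 148, 112 and 123 against 48, 91 and 14 normalised counts (-1.65, unadjusted p = 0.0096, adjusted p = 0.253), and without amisulpride replicate 3 its log2 fold change was -0.93, short of the study's threshold. For these 3 genes no treated value reached the untreated range, but they were named by their values, so this adds no support. Of the 34 tested, all treated values lay below the untreated ones for 9 and above them for 0. Among all 12614 genes tested, these counts were 1092 and 984. Mki67, a marker of cycling cells, had 28, 24 and 11 against 3, 3 and 18 normalised counts (-1.61, unadjusted p = 0.0404), with amisulpride replicate 3 within the untreated range. The treated values of 3 are near the floor of 3 reads. This floor is 2.69 normalised counts in amisulpride replicate 1 and 3.98 in amisulpride replicate 2. The call of Mki67 ended without any 1 of untreated replicates 1 and 2 and amisulpride replicates 1 and 2 (unadjusted p = 0.115 to 0.145), and Plk1 stood at -0.98 without untreated replicate 3.

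With the replicate number as a block, Ube2c and Cdc20 had adjusted p-values of 0.0260 and 0.0403 (limma). The number of lower proliferation genes with an unadjusted p under 0.05 was 12 with the block (35.3% of the list, against 7.43% of all genes in the same fit), 16 without amisulpride replicate 3 (47.1% against 6.49%) and 3 without untreated replicate 1 (8.82% against 3.73%). The summed value of the list was 2713 to 3339 normalised counts in untreated and 1925 to 2228 in treated libraries, while that of the fibroblast markers was 50953 to 73712 and 60358 to 111694.

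Targets of p53 other than Cdkn1a and Mdm2 stood on both sides of 0. Of 43 tested, 24 had a log2 fold change above 0 and 19 below, with a median of 0.13, and 5 were higher and 2 lower with an unadjusted p under 0.05 (limma), against 5.11% and 5.77% of all genes. Past the thresholds of the study were 3. Pltp, a phospholipid transfer protein, had 43, 26 and 43 normalised counts in untreated and 95, 130 and 109 in treated replicates (log2 fold change 1.58, unadjusted p = 0.000333, adjusted p = 0.0646, or 0.0150 with the replicate number as a block). Steap3, a ferrireductase, had 35, 22 and 20 against 60, 66 and 45 (1.14, unadjusted p = 0.00717, adjusted p = 0.230, or 0.99 without untreated replicate 3). Perp, a desmosome component, had 9, 7 and 0 against 23, 25 and 27, and since it passed the filter on low values through the treated group alone, its place in these counts supports nothing. For all 3 genes each treated value lay above the untreated range, but they were named by their values, so this adds no support. Ccng1, in contrast, which encodes cyclin G1, stood at 525, 636 and 622 against 590, 820 and 653 normalised counts (0.20, unadjusted p = 0.417). Without amisulpride replicate 3 the number of p53 targets with an unadjusted p under 0.05 was 12 of 42 (28.6%, against 12.7% of all genes in that fit), of which 9 were higher (21.4% against 6.19%). With any other library left out the number was 5 to 7 (11.6% to 16.7%, against 7.35% to 13.2% of all genes). The median of the list ranged from -0.05 to 0.12 with a library left out and was below 0 without amisulpride replicate 1.

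Of 21 p53 regulators tested, 15 had a log2 fold change below 0 (71.4%, against 49.9% of all genes tested), the median was -0.12, and 1 was lower with an unadjusted p under 0.05 (limma), a share of 4.76% against 5.77% of all genes. Rfwd2, a p53 ubiquitin ligase, had 165, 168 and 151 normalised counts in untreated and 133, 90 and 98 in treated replicates (log2 fold change -0.61, unadjusted p = 0.0390, adjusted p = 0.426), a call that ended in 5 of the 6 fits with a library left out, all but that without amisulpride replicate 1. Hipk2, a p53 kinase, was next with 12, 16 and 13 against 8, 1 and 9, but passed the filter on low values through the untreated group alone, so no test of it is given. It is among the 15 below 0, with its direction fixed by the filter. Mdm4, the partner of Mdm2, had 158, 156 and 146 against 151, 169 and 134 normalised counts (-0.02, unadjusted p = 0.922). Among 30 upstream regulators of the D cyclins and CDK inhibitors, 2 were lower and 0 higher with an unadjusted p under 0.05, with a median of -0.02. The 2 are 6.67% of the list, near the 5.77% of all genes. Tbx3, a repressor of Cdkn2a, was the 1 past the thresholds of the study, at 27, 14 and 21 against 11, 8 and 7 normalised counts (-1.14, unadjusted p = 0.0369, adjusted p = 0.417), and its call ended without untreated replicate 1 or 3 or amisulpride replicate 2 or 3 (unadjusted p = 0.0647 to 0.137).

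**Figure D5:**
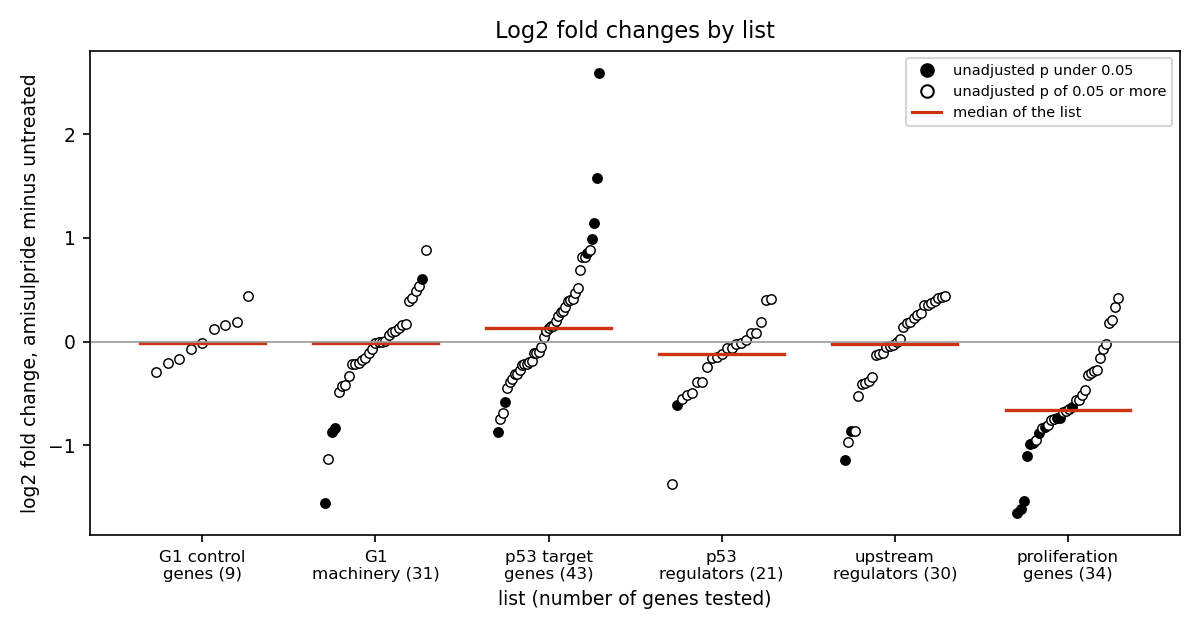
Log2 fold change (amisulpride minus untreated) of each gene tested in the G1 control genes and in 5 lists, ordered by value within a list, with filled points for an unadjusted p under 0.05 (limma) and a red line at the median. The G1 control genes lie between -0.29 and 0.44 with no filled point, while the proliferation genes have a median of -0.66 and 11 filled points, all below 0.

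Library quality and cell identity bear on all of these values. Approximate depths were 2.52 to 4.71 M reads, and amisulpride replicate 3, the shallowest, stood apart from the other 5 on the first principal component (73.9 against -38.2 to 10.4; 37.1% of the variance). All 12 fibroblast markers passed the filter. Lymphocyte markers summed to 0 to 3 normalised counts, muscle markers to 20 to 55, and endothelial markers to 77 to 98 in untreated and 27 to 67 in treated libraries, with Cdh5 and Tie1 at 0. The 14 myeloid markers summed to 2383 to 4245 and 2375 to 4273 normalised counts, mostly Lyz2 at 1394 to 3287, with Ptprc, which encodes CD45, at 5 to 38 and Cd163 at 0 in every library. Chondrocyte and osteoblast markers summed to 621 to 1331 and 826 to 1629. The part of depth and of other cells in the values of the G1 control genes was not tested.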

How the data were processed

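Total RNA (RIN > 7, per the labels) of 3 untreated and 3 amisulpride cultures was sequenced with a 3′ mRNA kit on an Ion Proton. Per the study's methods and the labels, the authors mapped reads to mm10 with TopHat2 and Bowtie2, counted them with GenomicRanges and normalised them with DESeq through metaseqr (versions and strand setting not given in the sources used here). The deposited values are a score, that is, read counts after scaling by a library-wide factor and rounding by the authors. Depths of 2.52 to 4.71 M reads were estimated from the step that 1 read makes. The authors' fold changes and p-values, group means and 12 columns on other scales were not used.

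The comparison used limma (version 3.58.1, under R 4.3.3) with a variance trend, run on log2(value + 1) of the 12614 genes that reached 10 in 3 or more libraries. Tests were two-sided with Benjamini-Hochberg adjustment over all genes tested. Read counts could not be restored exactly, so no count test was run, and an exact permutation test cannot go below 0.1 with 3 libraries a group. Fold changes on this scale understate the change of low genes. The 3 libraries of a group are biological replicates per the study's methods, which do not say whether each came from other animals. The labels give replicate numbers, and neither they nor the methods say that equal numbers are paired cultures. Deviations from the group means correlated by 0.229, 0.240 and 0.201 between libraries of the same number and by -0.149 to -0.0777 otherwise. The deviations of a group sum to 0, so these correlations depend on each other. The main fit had no block, and the replicate number as a block was an alternative. The genes and lists were chosen with earlier results of these data known. Named were all G1 control genes, Cdk4, Cdk6, Cdk2, Rb1, Mdm4, Ccng1, Mki67 and Myc, the genes of each list past the study's thresholds (at most 6) or else the 2 with the lowest p, and for likeness the 3 protein-coding genes with the highest r to Ccnd1, Cdkn1a and Trp53. Annotation was GENCODE on mm10, and promoters came from RefSeq.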

Additional observations from a re-analysis of the deposited data

How the results depend on the processing

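Of 162 log2 fold changes, 9 G1 control genes under 18 alternatives, 143 kept their sign and side of the threshold, 17 changed sign and 2, both of Ccnd1, passed an unadjusted p of 0.05. With 3 libraries a group, and 1 library apart from the rest, a difference small enough to leave 0 inside its interval could not be seen.

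The number of G1 control genes with an unadjusted p under 0.05 was 1 with library weights and 0 to 1 when each library was left out in turn. With library weights the log2 fold change was 0.018 for Cdkn1b, 0.12 for Cdkn2a, -0.17 for Trp53 and 0.16 for Mdm2. Leaving out each library gave -0.0055 to 0.37 for Ccnd2, -0.25 to 0.11 for Cdkn1b, -0.40 to 0.22 for Cdkn2a, -0.20 to 0.53 for Trp53 and -0.21 to 0.18 for Mdm2. No member of these changed its side of the threshold, and the cause of the sign changes was not tested.

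The replicate block, with which 263 genes had an adjusted p under 0.05 in place of 36, changed no call of a G1 control gene. Fits with the block that left out both libraries of a number were chosen after seeing the data. They gave 15, 97 and 467 genes without replicates 1, 2 and 3. Without replicate 3 they gave 0.22 for Cdkn1b, 0.24 for Cdkn2a, -0.047 for Trp53 and 0.17 for Mdm2, and without replicate 1 they gave 0.069 for Mdm2.

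The number of genes with an adjusted p under 0.05 was 57 with a pseudocount of 5 and also with no filter, 66 with quantile normalisation, 195 with library weights and 0 to 120 when each library was left out, with 120 when this was amisulpride replicate 3. Past the study's thresholds were 719 genes, 1313 with no filter and 563 to 1000 with a library left out.

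Counts of list genes with an unadjusted p under 0.05 moved as well, and so did the share over all genes tested. That share was 10.9% in the main fit, 14.6% with the replicate block and 7.35% to 13.2% with a library left out. It was not computed for the other alternatives, so their counts are not read as results about the lists. With library weights the counts were 7 for G1 machinery, 12 for p53 targets, 3 for p53 regulators and 18 for proliferation genes. With the replicate block they were 2, 2 and 7 for G1 machinery, p53 regulators and proliferation genes without replicate 1, 2 and 6 for G1 machinery and proliferation genes without replicate 2, and 11 and 0 for p53 targets and p53 regulators without replicate 3. Upstream regulators numbered 4 with a pseudocount of 5, with median centring and without the variance trend, 1 with quantile normalisation or with the block without replicate 1, and 0 with no filter. Leaving out each library gave 3 to 5 for G1 machinery, 5 to 12 for p53 targets, 0 to 2 for p53 regulators, 0 to 3 for upstream regulators and 3 to 16 for proliferation genes. The count for proliferation genes was 3 and 5 when untreated replicates 1 and 2 were left out, and 7 and 4 when amisulpride replicates 1 and 2 were. Of the list these were 8.82%, 15.2%, 20.6% and 12.1%. Of all genes in the same fits, in the same order, the shares were 7.80%, 8.78%, 13.2% and 9.33%.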

Other observations

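Genes of the lists beyond the naming rule, chosen here after their values were seen, also stood apart at an unadjusted p under 0.05 without an adjusted p under 0.05 (limma). Among p53 targets, Gadd45a, a stress-induced regulator of growth arrest, had 105, 88 and 139 normalised counts in untreated and 197, 218 and 236 in treated replicates (log2 fold change 0.99, unadjusted p = 0.00309, adjusted p = 0.167), and Tap1, the antigen peptide transporter, 151, 119 and 94 against 251, 264 and 152 (0.85, unadjusted p = 0.0157). Bax, a promoter of apoptosis, was lower, at 363, 197 and 257 against 163, 174 and 106 normalised counts (-0.87, unadjusted p = 0.0155, adjusted p = 0.298), and so was Ak1, an adenylate kinase, at 584, 809 and 743 against 535, 463 and 422 (-0.58, unadjusted p = 0.0337). The groups did not overlap for any of these 4 genes, 2 higher and 2 lower, as for 16.5% of all genes tested. Since the 4 were picked by their values, this adds no support. Of the 43 p53 targets tested, all treated values lay above the untreated ones for 7, Perp included, and below them for 3. Of all 12614 genes tested they did so for 984 and 1092. With a library left out in turn, Gadd45a kept an unadjusted p under 0.05 in 6 of 6 fits, whereas Bax lost it without untreated replicate 1, Tap1 without untreated replicate 3 or amisulpride replicate 1 or 2, and Ak1 without untreated replicate 2 or 3 or amisulpride replicate 2 or 3.

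In the list called G1 machinery, the 1 gene higher with an unadjusted p under 0.05 was Cdk5rap3. It had 247, 273 and 200 normalised counts against 308, 448 and 345 (log2 fold change 0.60, limma, unadjusted p = 0.0359). Besides Tbx3, the upstream regulator Zbtb17, which encodes Miz1, was lower at 39, 27 and 43 against 14, 25 and 20 normalised counts (-0.86, unadjusted p = 0.0466). Cdk5rap3 lost its call without untreated replicate 1 or 3 or amisulpride replicate 2, and Zbtb17 without untreated replicate 1 or 3 or amisulpride replicate 1 or 3.

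Cell type markers had no common direction. Of 12 fibroblast markers tested 7 had a log2 fold change above 0 and 5 below, with a median of 0.19, and 1 was lower with an unadjusted p under 0.05 (limma). This was the lubricin gene Prg4 of the joint lining, with 915, 859 and 733 against 426, 304 and 653 normalised counts (-0.92, unadjusted p = 0.00924, or 0.0507 without amisulpride replicate 2). Of 13 myeloid markers 7 were above 0 and 6 below, with a median of 0.05. With an unadjusted p under 0.05, Cd14 was lower at 121, 69 and 76 against 47, 25 and 13 normalised counts (-1.74, unadjusted p = 0.00223), Csf1r was lower at 114, 93 and 76 against 41, 23 and 100 (-1.01, unadjusted p = 0.0486), and the complement gene C1qc was higher at 34 to 95 against 67 to 127 (0.95, unadjusted p = 0.0392). With a library left out in turn, Cd14 kept its call in 6 of 6 fits, Csf1r only without amisulpride replicate 3, and C1qc only without untreated replicate 1 or amisulpride replicate 2. Calls made up 8.33% of the fibroblast and 23.1% of the myeloid markers, against 10.9% of all genes tested. With the replicate number as a block, 2 fibroblast markers were higher and 3 lower (41.7%), and 3 myeloid markers higher and 3 lower (46.2%). The share over all genes in that fit was 14.6%. Of 3 chondrocyte and osteoblast markers tested 2 were above 0. The other, Alpl, had 63, 21 and 28 against 8, 4 and 5 normalised counts and passed the filter through the untreated group alone, so no test of it is given.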
